A study of Mus musculus with 10 samples.

Results

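The Shh response of Bmi1 knockout granule precursors was measured as the difference between 2 groups of cultures, made of 5 of the 10 arrays of the study. Both groups were primary cultures of cerebellar granule precursor cells from Bmi1 knockout mice at postnatal days 5 to 7. Replicates 2, 4 and 6 were untreated, and replicates 8 and 10 received Shh for 24 hours at a concentration labelled as 3 mg/ml, which is given here as labelled. All cultures, with and without Shh, were grown in medium with serum and added potassium chloride for a stated 24 hours. The labels do not state whether the untreated cultures were kept as long as the treated ones in all, so time in culture and Shh cannot be told apart. The other 5 arrays held wild type cultures, 3 untreated (replicates 1, 3 and 5) and 2 with Shh (replicates 7 and 9), and replicate 3, which carries a note on Shh for cases where it applies, was taken as untreated because its title names no Shh. In both genotypes the Shh arrays carry later numbers than the untreated ones, and meninges and vessels were stripped off before the tissue was dissociated. The wild type arrays entered the fit for its estimate of spread and were used at the end to compare the genotypes. The design text calls the cultures biological replicates, but how many animals a culture came from and which part of Bmi1 was deleted are not given in the sources used here. The p-values therefore measure only the spread between these arrays.

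Sonic hedgehog (Shh) is the main mitogen of granule neuron precursors, and in the cerebellum it is secreted by Purkinje cells. It binds the receptor Ptch1, which relieves the inhibition of Smo and lets Gli transcription factors activate targets such as Gli1, Ptch1 itself, Mycn and D-type cyclins. Bmi1 is a Polycomb protein that represses the Cdkn2a locus, whose products p16 and p19 restrain the cell cycle through the Rb and p53 pathways. Primary cultures of this kind can also hold glia, vascular cells, microglia and other neurons.

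Array signal is a brightness on a linear scale, which the authors had brought to the same trimmed mean on every array. Every difference below is a log2 difference between the means of the Shh and the untreated knockout arrays, so that 1 is a doubling. A gene is called when its adjusted p from limma (Benjamini-Hochberg over all 11405 genes tested, two-sided) lies under 0.05. The main variation of the data followed the treatment: the first principal component of the 10 arrays carried 70.1% of the variance and separated all Shh from all untreated arrays, and the next carried 7.79%. The median signal of an array was 85.0 to 89.6 in the untreated knockout cultures and 71.6 to 72.1 in those with Shh, whereas the upper quartile was 518.7 to 539.6 and 506.0 to 510.7. The choice of scaling therefore mattered, and results are also given after centring each array on its median and after quantile normalization. Ratios of 3' to 5' probe sets of Gapdh were 0.823 to 0.997 on the knockout arrays. The 3' control for 18S ribosomal RNA stood at 6301 on untreated replicate 6 and at 262.1 to 648.6 on the other 4 knockout arrays.

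In the knockout cultures 3199 of the 11405 genes (28.0%) were called, 1260 higher with Shh (11.0%) and 1939 lower (17.0%). Of the genes called, 39.4% were thus higher. After median centring, which moved the median difference of all genes from -0.01 to 0.29, 5477 genes were called and 79.4% of them were higher (4347 higher, or 38.1% of all genes, and 1130 lower, or 9.91%). Quantile normalization gave 1403 higher (12.3%) and 1653 lower (14.5%), so that 45.9% of its calls were higher. A core of 1173 genes (10.3%) was called higher and 1074 genes (9.42%) lower under all 3 scalings. Changes of 2-fold or more lay mostly on the lower side, with 194 genes (1.70%) higher and 811 (7.11%) lower. The 2 Shh arrays did not overlap the 3 untreated arrays in any of the 3199 genes called, a state that 55.7% of all genes tested shared. Single libraries mattered for the count, which was 1893 without Shh replicate 8, 2045 without Shh replicate 10 and 2533 to 2685 without any of the untreated replicates.

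**Figure D1:**
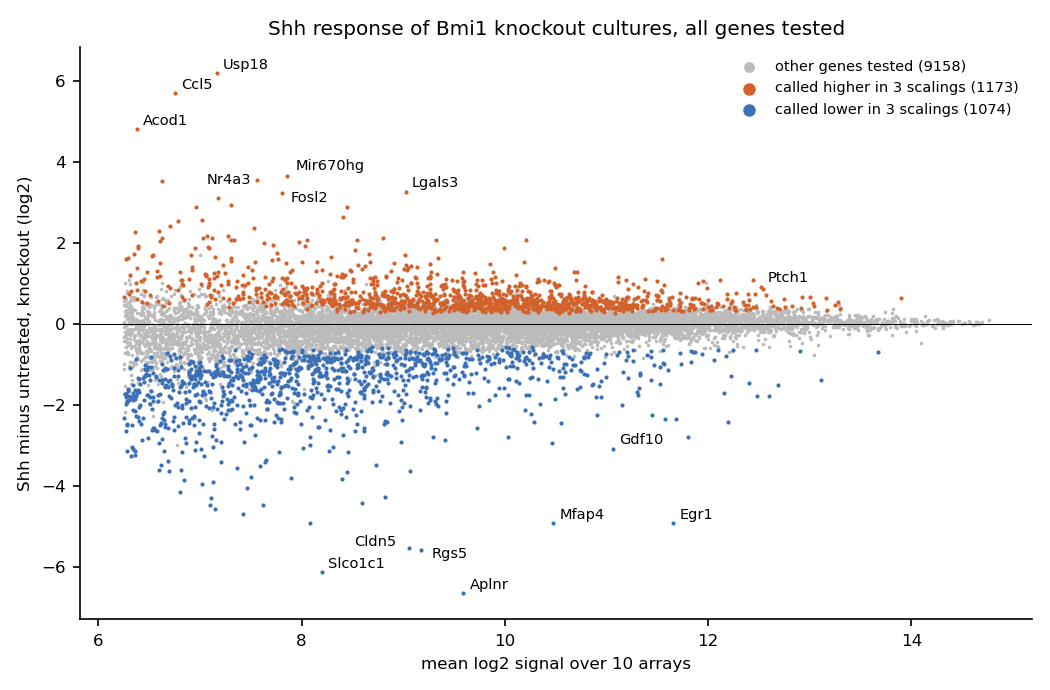
Log2 difference between knockout cultures with and without Shh (vertical axis) against the mean log2 signal over 10 arrays (horizontal axis), 1 point per gene tested. Orange points are the 1173 genes called higher and blue points the 1074 called lower under all 3 scalings, and the largest falls (down to -6.65 for Aplnr) exceed the largest rise of a gene with signal above the floor in both groups (3.66 for Mir670hg).

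Factors of granule precursors were read to describe the cultures. Of 18 listed, 14 had a probe set that passed the filter on signal. Members without one were not tested, so these values are no test of the identity of the cultures. Of 14 tested granule precursor factors, 1 was called higher and 0 lower, with a median difference of -0.11 that became 0.18 after median centring, where 4 were called higher. Atoh1, the transcription factor that specifies granule precursors, had signals of 1431, 1935 and 1540 untreated and 2043 and 1848 with Shh. The Atoh1 groups overlapped, and the difference of 0.26 (SE 0.14) missed the threshold (limma adjusted p = 0.208), which it passed after median centring (0.55). Zic1, a zinc finger factor of the granule lineage, was among the brighter genes, at 11580, 13080 and 13340 untreated and 12230 and 11500 with Shh, and overlapped between groups. Pax6, another factor of the lineage, read 6385, 6327 and 6606 untreated and 5371 and 5780 with Shh, so that both Shh arrays lay below all untreated ones without passing the test (limma adjusted p = 0.111). Neurod1, which drives granule neuron differentiation and stands on that list, stood at 12610 to 14230 untreated and at 13870 and 15590 with Shh (limma adjusted p = 0.621). Zic1, Pax6 and Neurod1 were chosen for mention after their values were seen. Only Mycn among the granule precursor factors was called higher, and this call is described with the Shh targets below.

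Many markers of other cell types that the cultures could hold fell with Shh, and those of vessels had the lowest median of all lists. In bulk cultures fewer cells of a type and less RNA per cell cannot be told apart. Of 16 tested markers of endothelial cells and pericytes, 14 were called lower and 1 higher, with a median difference of -3.14 where the median of all genes was -0.01. Their summed signal was 10870 to 12840 on the untreated arrays and 3386 to 3568 with Shh, with 1 member at the floor on both Shh arrays. Cldn5, a tight junction protein of brain endothelium, had signals of 2410, 2309 and 2470 untreated and 53.01 and 51.09 with Shh. Rgs5, a pericyte marker, read 2105, 3328 and 3565 against 78.4 and 47.8. Neither gene came near overlap, and the differences were -5.52 (SE 0.16) for Cldn5 and -5.58 (SE 0.28) for Rgs5. The other probe sets of Rgs5 gave 0.01, -4.72 and -4.44. The only member that rose was Sox18, a transcription factor of developing vessels, which went from 627.5, 534.4 and 689.7 to 2300 and 2194 (1.87, SE 0.16, limma adjusted p = 8.20e-05).

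Glial markers fell in the same way. Of 25 tested markers of astrocytes and Bergmann glia 20 were called lower and 2 higher, with a median difference of -1.30, and their summed signal went from 91190 to 97290 untreated down to 46130 to 51280 with Shh. Sparcl1, a secreted glycoprotein of astrocytes, was at 10930, 11160 and 11110 untreated and at 4130 and 3703 with Shh. Hopx, which marks Bergmann glia, read 4290, 4048 and 4857 untreated and 1570 and 1558 with Shh. Both genes were clearly apart between groups. The 2 markers called higher were Sox9 (0.42) and Gfap (0.54), chosen for mention after their values were seen. Sox9 lost the call in each of the 5 fits that left out a knockout array, and Gfap in those without untreated replicate 2, Shh replicate 8 or Shh replicate 10 and after quantile normalization. With the mean over probe sets neither was called (0.37 and 0.40). Of 18 markers of the oligodendrocyte lineage 14 were called lower and 1 higher, with a median of -1.21. Mag, a myelin adhesion protein, had signals of 544.9, 1170 and 595.4 untreated and 43.5 and 152.0 with Shh. The summed signal of this list was 38780 to 50050 untreated and 21040 to 26370 with Shh, and without Shh replicate 8 only 9 members were called lower. The member that rose was Pdgfra (0.47, SE 0.14), the receptor that marks oligodendrocyte precursors, whose call was lost without untreated replicate 4 or 6, without either Shh replicate, and with the mean over probe sets (0.17).

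Markers of other neurons fell as well. Some genes stand on more than 1 cell type list, so the counts are not independent. Examples are Lhx5 and Pvalb (Purkinje cells and interneurons) and Pdgfrb (pericytes and fibroblasts). Of 15 tested Purkinje cell markers 12 were called lower and 0 higher, with a median of -1.97, and their sum went from 42350 to 68540 untreated to 19220 to 21130 with Shh. Slc1a6, the glutamate transporter of Purkinje cells, read 1543, 834.3 and 1560 untreated and 48.7 and 71.0 with Shh. Calb1, a calcium buffer of these cells, had signals of 10580, 7373 and 13560 untreated and 1645 and 2165 with Shh. Both lay well apart between groups, with differences of -4.42 (SE 0.38) for Slc1a6 and -2.43 (SE 0.31) for Calb1. Of 12 inhibitory interneuron markers 8 were called lower and 0 higher (median -0.92), among them Ptf1a, the factor that specifies GABAergic neurons of the cerebellum (-1.70), and Slc32a1, the vesicular GABA transporter (-1.07). The other probe sets of Slc32a1 gave 0.00, 0.00 and 0.67, and with their mean its call was lost (-0.10). Without either Shh replicate, 8 or 10, the interneuron count was 5. Of 15 fibroblast and meningeal markers 10 were called lower and 1 higher (median -1.05), and their sum was 11840 to 12120 untreated and 7993 to 8019 with Shh. Of 5 unipolar brush cell markers 2 were called lower, Calb2 and Plcb4, with 1 called without Shh replicate 8, and of 7 ependymal markers 2 were, although without untreated replicate 4 or Shh replicate 10 no ependymal marker was called. The erythroid list had only 2 tested members, of which Alas2, an enzyme of heme synthesis, was called lower (-1.64), a call lost without Shh replicate 10.

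Microglia and macrophage markers moved in both directions. Of 23 tested markers 11 were called lower and 6 higher, with a median of -0.97, and the summed signal went from 18850 to 20890 untreated to 9774 to 13510 with Shh. Among the markers that fell, P2ry12, the purinergic receptor of resting microglia, had signals of 369.5, 282.9 and 268.6 untreated and lay under the floor of 20.9 on both Shh arrays, so that it was at least 14.6-fold lower. C1qa, a subunit of complement C1q, read 785.2, 818.0 and 796.5 untreated and 179.3 and 234.9 with Shh (-1.96, SE 0.15). Mrc1, a mannose receptor of border macrophages, and Cx3cr1, the fractalkine receptor, fell by 2.45 and by 1.83. Those that rose were Lgals3, Lyz2, Cd14, Ptprc, Fcer1g and Cd68, of which all but Lgals3 were chosen for mention after their values were seen. Lgals3, a galectin of activated macrophages, read 130.2, 301.7 and 189.6 untreated and 1544 and 2287 with Shh (3.27, SE 0.38). Lyz2, the lysozyme of myeloid cells, read 195.2, 272.2 and 227.6 against 655.3 and 887.6 (1.73, SE 0.23). Neither of these 2 genes overlapped between groups. Ptprc, the leukocyte antigen CD45, rose by 1.12 and Cd14 by 1.64, and the calls of Cd14, Fcer1g and Cd68 were each lost without at least 1 array.

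Within the Hedgehog pathway, 3 of 10 tested ligands, receptors and co-receptors and 4 of 20 signal transducers were called, beside 28.0% of all genes. Of the ligands and receptors 1 was called higher and 2 lower, with a median of -0.13 that became 0.16 after median centring, where 4 were called higher and 2 lower. Ptch1, the Shh receptor and a direct Gli target, had signals of 5228, 4787 and 4686 untreated and 9753 and 8809 with Shh. The groups were far apart, and Ptch1 rose 1.89-fold (0.92, SE 0.09, limma adjusted p = 0.000197), with differences of 1.01 and 0.96 at its other probe sets. The members that fell were Scube2, which helps release lipid-bound Shh, and Shh itself. Scube2 read 827.8, 602.6 and 591.1 untreated and 135.9 and 85.7 with Shh (-2.62, SE 0.23). The Shh transcript was low, at 303.8, 103.0 and 331.1 untreated and 69.7 and 53.6 with Shh, and its fall by 1.83 was called with all 5 arrays and without untreated replicate 4, but not without any other array, after quantile normalization, or with the mean over its probe sets (-0.82). Shh is made by Purkinje cells, whose markers fell with it, and their part in this result was not tested.

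The other receptors were not called with the scaling as deposited. Hhip, a decoy receptor and target, had signals of 197.3, 143.5 and 187.2 untreated and 225.0 and 237.6 with Shh (0.41, SE 0.22, limma adjusted p = 0.200). Boc, a co-receptor, read 1411, 1486 and 1472 untreated and 1699 and 1605 with Shh. Both genes were higher on both Shh arrays than on any untreated array, and Boc stood at 0.18 (SE 0.10, limma adjusted p = 0.196). Both were called after median centring (0.70 for Hhip, 0.47 for Boc). Smo, the signalling receptor, overlapped at 2431, 2228 and 1898 untreated and 2026 and 2160 with Shh, with a difference of -0.06 that became 0.24 after median centring. Gas1, a further co-receptor, ranged from 1782 to 3732 untreated and stood at 3154 and 1927 with Shh (-0.21, SE 0.36, and 0.09 after median centring).

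Of 20 signal transducers 1 was called higher and 3 lower, with a median of -0.14 that became 0.16 after median centring, where 5 were called higher and 3 lower. Gli1, the activator whose transcription reports pathway activity, read 1193, 1156 and 1199 untreated and 1987 and 1550 with Shh. Its groups did not overlap, although the 2 Shh arrays differed from each other by more than the 3 untreated ones. Gli1 rose 1.48-fold (0.57, SE 0.12, limma adjusted p = 0.00692), and without Shh replicate 8 the adjusted p was 0.0633. Gli3, which acts largely as a repressor, had signals of 789.6, 842.4 and 770.0 untreated and 505.2 and 378.3 with Shh. Gli3 fell by 0.87 (SE 0.15), with -0.22 and -0.50 at its other probe sets. Evc and Evc2, partners that relay the Smo signal at the primary cilium, fell by 1.30 and by 1.21. Gli2, the main activator upstream of Gli1, overlapped between groups at 2425, 2715 and 2180 untreated and 2713 and 2314 with Shh, and Sufu, which holds Gli proteins in check, differed by 0.04, or by 0.33 after median centring, where it was called.

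Of 24 tested targets of Shh in granule precursors 6 were called higher and 4 lower, with a median of 0.20, and 12 and 3 after median centring. The members called higher were Ptch1, Gli1, Irs1, Ccnd1, Mycn and E2f1, and without Shh replicate 8 only 3 members were called higher. Irs1, an adaptor of insulin and IGF receptors, read 5459, 4646 and 4781 untreated and 8240 and 8268 with Shh (0.74, SE 0.11). Mycn, the MYC family factor of precursor proliferation, had signals of 3169, 4325 and 3991 untreated and 5658 and 5101 with Shh. The Mycn groups did not overlap, but its call (0.50, SE 0.14, limma adjusted p = 0.0237) was lost without either Shh replicate, 8 or 10, and its other probe sets disagreed, at 1.04 and -0.46, so that their mean was not called (0.36). E2f1, which drives entry into S phase, was not called with the mean over its probe sets either (0.44). Ccnd1, a D-type cyclin that starts the G1 phase, read 4065, 4992 and 4989 untreated and 7361 and 5954 with Shh (0.51, SE 0.13), and its call was lost without untreated replicate 2 or Shh replicate 8. Ccnd2, the other D cyclin of these cells, was brighter, at 12230, 12700 and 14950 untreated and 17500 and 16510 with Shh. Ccnd2 did not overlap either, but missed the threshold (0.36, SE 0.13, limma adjusted p = 0.0687). It was called after median centring (0.65), after quantile normalization (0.34) and with the mean over probe sets (0.50). The targets called lower were Ccn1, Hes1, Igf2 and Nkx2-2, and without untreated replicate 2 only 2 of them were called. Igf2, a growth factor, is taken up again in the comparison of genotypes. The call of Nkx2-2 (-0.45, SE 0.14) was lost without untreated replicate 2, 4 or 6. It did not hold after median centring either, where the difference was -0.16.

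**Figure D2:**
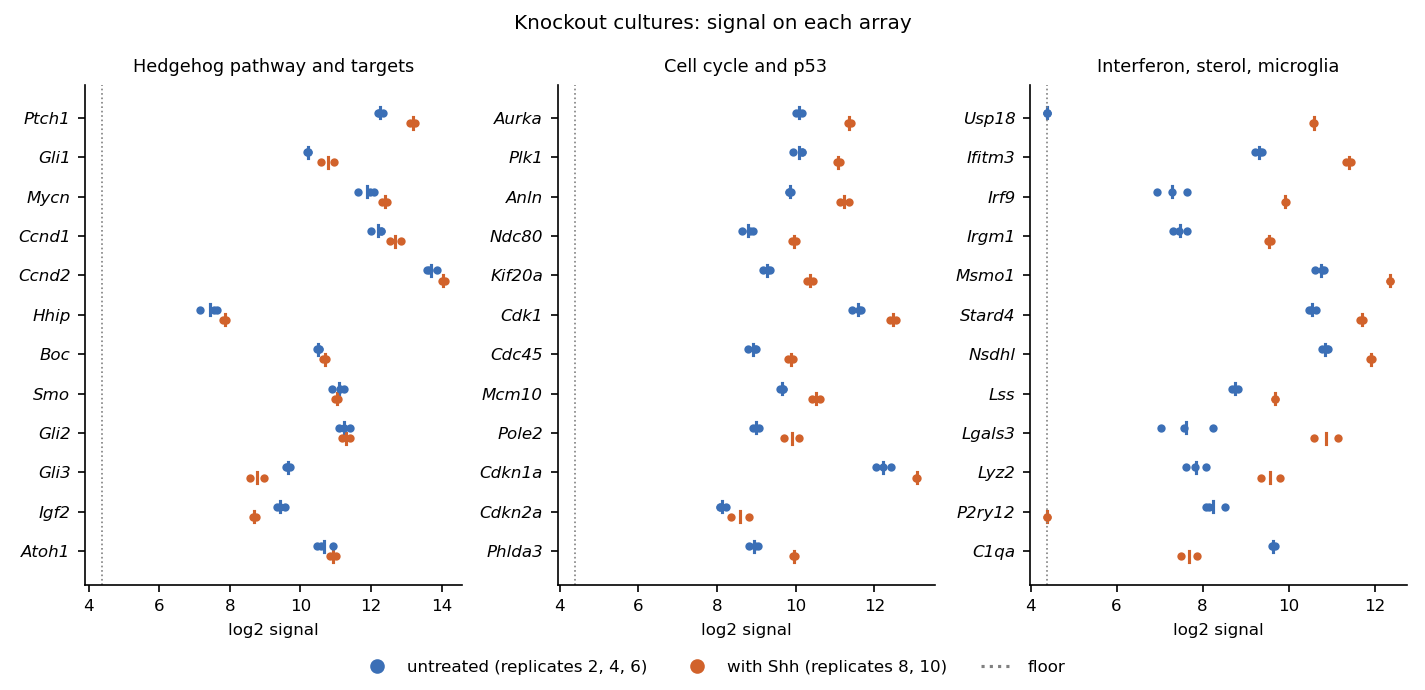
Log2 signal on each knockout array (horizontal axis) for 12 genes of the Hedgehog pathway, 12 of the cell cycle and p53 lists and 12 of the interferon, cholesterol and microglia lists, with untreated replicates in blue, Shh replicates in orange, vertical bars at the group means and the floor as a dotted line. Ptch1 and Aurka lie far to the right with Shh, Smo and Gli2 overlap, and P2ry12 lies on the floor on both Shh arrays.

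Read at 1 probe set per gene, with the scaling as deposited, cell cycle genes were called higher or not at all. The calls covered most of the mitotic list and a minority of the G1 and replication lists. The G1 list of D cyclins, their kinases and the E2F network had 9 of 30 members called higher and 0 lower (median 0.29), and 23 were called higher after median centring. Without Shh replicate 8 or untreated replicate 2 the count was 3 or 5. Cdk6, the kinase partner of D cyclins, read 2931, 2573 and 2516 untreated and 4229 and 3822 with Shh (0.59, SE 0.11), but its other probe sets gave 0.50 and -0.20 and their mean was not called (0.30). Ccne2, an E-type cyclin, rose by 0.91 and Skp2, which targets p27 for degradation, by 0.92, and both calls were lost without Shh replicate 8, that of Skp2 also without untreated replicate 2. Of 52 replication genes 15 were called higher and 0 lower (median 0.24), or 44 after median centring, but only 6 without Shh replicate 8 and 9 without untreated replicate 6. Cdc45, a subunit of the replicative helicase, had signals of 502.3, 506.6 and 439.8 untreated and 976.7 and 899.4 with Shh (0.96, SE 0.14), with 0.28 at its other probe set, and the mean of both was not called (0.62). Mcm10, which loads polymerase, and Pole2, a subunit of polymerase epsilon, rose by 0.87 and by 0.91. Other probe sets of these genes showed less (0.17 and -0.36 for Mcm10, -0.21 for Pole2), and neither mean was called. With the mean over probe sets 4 replication genes were called higher, where 886 of all 11405 genes were. The G1 list then had 5 called higher and 2 lower.

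Of 59 genes of G2 phase and mitosis 37 were called higher and 0 lower, 10 of them past 2-fold, with a median of 0.44. After median centring 54 were called higher, and without Shh replicate 8 the count was 22. Aurka, the kinase that matures centrosomes, had signals of 1152, 1092 and 1032 untreated and 2708 and 2584 with Shh (1.28, SE 0.10, limma adjusted p = 5.73e-05). Anln, a scaffold of the cleavage furrow, read 937.6, 914.6 and 913.4 untreated and 2630 and 2224 with Shh (1.39, SE 0.09). These groups did not overlap, but the other probe sets of Aurka and Anln differed by 0.00 and 0.15. Ndc80, a kinetochore protein, rose by 1.16, and Kif20a, a kinesin of the central spindle, by 1.08. Cdk1, the mitotic kinase, went from 3259, 3137 and 2772 to 5965 and 5359 (0.89, SE 0.10), and Plk1, the polo kinase, from 1143, 971.6 and 1155 to 2257 and 2105 (1.00, SE 0.11). Cdk1 and Plk1 were chosen for mention after their values were seen.

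The promoters of the lists, of members called and not called, were searched for motifs as a description. Among 54 promoters of G2 and mitosis genes in the RefSeq table (300 bases around the start, GRCm38.p6), 70.4% held TTTGAA, the CHR element of mitotic genes, and 68.5% held CCAAT, the box bound by NF-Y, on either strand. Among the 29 promoters of the members called higher under all scalings the shares were 69.0% and 62.1%. The same letters stood in 11.4% and 37.6% of the 12004 promoters of all 9267 tested genes with an entry. The E2F motif GCGGGAA stood in 37.0% of 54 replication gene promoters and in 8.28% of all promoters. CCACCCA, the core of the GLI motif, stood in 9.52% of 21 Shh target promoters against 9.41% of all. These promoters belonged to 17 of the 24 tested targets. Gli1 had no entry, so that its promoter was not searched. The promoters of Aurka (chr2:172370521-172370820, minus strand) and Plk1 (chr7:122159185-122159484, plus strand) are shown 5′ to 3′ because both hold CHR and NF-Y letters close to the start. Capitals mark those motifs.
Aurka: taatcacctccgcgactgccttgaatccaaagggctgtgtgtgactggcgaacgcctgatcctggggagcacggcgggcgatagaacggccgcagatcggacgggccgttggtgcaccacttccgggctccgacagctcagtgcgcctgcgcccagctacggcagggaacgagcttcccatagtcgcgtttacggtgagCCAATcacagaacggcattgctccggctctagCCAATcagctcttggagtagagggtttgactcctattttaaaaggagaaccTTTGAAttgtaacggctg
Plk1: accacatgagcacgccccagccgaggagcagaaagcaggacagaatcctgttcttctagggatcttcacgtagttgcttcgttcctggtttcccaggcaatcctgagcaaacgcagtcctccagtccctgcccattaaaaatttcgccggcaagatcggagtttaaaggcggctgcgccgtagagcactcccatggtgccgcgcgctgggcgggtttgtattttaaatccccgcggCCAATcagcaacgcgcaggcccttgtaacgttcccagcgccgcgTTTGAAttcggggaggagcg

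A minority of the cell cycle inhibitors and most p53 targets were called higher. Of 8 tested CDK inhibitors 3 were called higher and 0 lower (median 0.46), and 1 without untreated replicate 2 or without Shh replicate 8. Cdkn1a, the p53 target p21, had signals of 4817, 4186 and 5503 untreated and 8750 and 8551 with Shh (0.85, SE 0.17, limma adjusted p = 0.00580). Its other probe set gave 1.37, and the mean of both, 1.11, was not called. Cdkn2a, the locus that Bmi1 represses, read 272.5, 271.3 and 301.3 untreated and 328.7 and 451.5 with Shh. The Cdkn2a groups did not overlap, but the difference of 0.45 (SE 0.18) missed the threshold (limma adjusted p = 0.0951). Cdkn2a was called after median centring (0.75) and without the floor (0.41). Cdkn1b (0.23, and called at 0.52 after median centring), Cdkn1c (-0.39) and Cdkn2c (0.03) were not called, and the calls of Cdkn2d (0.60) and Cdkn3 (0.68) were lost without untreated replicate 2 or Shh replicate 8, among others. Bmi1 signal remained in the knockout cultures, at 3416 to 3904 untreated and 3432 and 3416 with Shh, and its probe sets do not check the genotype.

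Of 29 tested p53 targets 18 were called higher and 2 lower, 4 of them past 2-fold and all of these higher, with a median of 0.48. Without Shh replicate 8 the count on the higher side was 10. Eda2r, a receptor of the TNF family, had signals of 631.9, 598.7 and 656.6 untreated and 1690 and 1525 with Shh (1.35, SE 0.11, limma adjusted p = 4.81e-05). Phlda3, an inhibitor of Akt, read 523.7, 451.4 and 503.8 untreated and 982.4 and 1021 with Shh (1.03, SE 0.13). Both genes lay apart between groups by more than any spread within them. Ccng1, cyclin G1, read 2105, 2657 and 2609 untreated and 5536 and 4795 with Shh (1.08, SE 0.14). Gtse1, which binds p53 in G2 phase, rose by 1.14. Mdm2, the ubiquitin ligase of p53 and its feedback target, rose by 0.60 (SE 0.12), a call that was lost without Shh replicate 8 and with the mean over probe sets (0.19). The targets called lower were Btg2, an antiproliferative gene that is also induced by activity (-0.85), and Ddb2, a repair factor (-0.62), and the call of Ddb2 did not hold under all scalings. Of 35 genes of DNA damage and repair 8 were called higher and 2 lower (median 0.18), or 19 and 0 after median centring, led by Lig4, the ligase of end joining (1.53, SE 0.19), and Exo1, an exonuclease of mismatch repair (1.43, SE 0.12), and without Shh replicate 8 the higher count was 5. Of 26 apoptosis regulators 3 were called higher and 4 lower (median 0.02), or 12 and 3 after median centring. With the scaling as deposited these shares (11.5% higher, 15.4% lower) lay near the 11.0% and 17.0% of all genes. Casp8, the initiator of receptor-driven death, fell by 1.25. Its inhibitor Cflar fell by 1.21 at its brightest probe set, but the others gave 0.43, 0.01, 0.31 and -0.18, and the mean was not called (-0.13). Apaf1, the core of the apoptosome, rose by 0.57. Without Shh replicate 8 only 1 of these regulators was called higher.

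Most genes of neuronal maturation were not called, which also held for 8206 of all 11405 genes. The direction of the calls turned with the scaling, as it did over all genes. There 39.4% of the calls were higher with the scaling as deposited and 79.4% after median centring. Of 33 genes of granule neuron differentiation 2 were called higher and 9 lower, with a median of -0.05 that became 0.24 after median centring, where 14 were called higher and 6 lower. Neurog1, a proneural factor, had signals of 142.6, 166.4 and 167.6 untreated and 7.30 and 33.7 with Shh, and its other probe set gave -0.53. Vsnl1, a neuronal calcium sensor, read 482.7, 527.5 and 476.6 untreated and 138.9 and 134.8 with Shh (-1.86, SE 0.16). Calb2, calretinin, which also marks unipolar brush cells, fell by 1.40, and Dcc, a netrin receptor, by 0.64. All 4 were lower on both Shh arrays than on any untreated array. The members called higher were Mef2c, a factor of neuronal maturation (1.00, SE 0.25), and Plxnb2, a semaphorin receptor of granule precursors (0.47, SE 0.10), and each lost its call without 1 Shh array, replicate 10 for Mef2c and replicate 8 for Plxnb2. With the mean over probe sets Mef2c was not called (0.50).

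Of 33 synapse genes 4 were called higher and 5 lower, with a median of -0.08 that became 0.21 after median centring, where 10 were called higher and 4 lower. With the scaling as deposited these shares (12.1% higher, 15.2% lower) lay near the 11.0% and 17.0% of all genes. Those that fell included Sv2a, a synaptic vesicle protein, at 1646, 1701 and 2048 untreated and 1002 and 994.0 with Shh, and Syt4, a synaptotagmin (-1.02). Nlgn3, a postsynaptic adhesion protein, fell by 0.99, but its other probe sets gave -0.35 and 0.29, and the mean was not called (-0.35). Without Shh replicate 8 the lower count was 3. The genes called higher were Bsn (1.17), Syn1 (0.62), Rims1 (0.50) and Sv2b (0.34), all proteins of the presynaptic terminal, but 0 of them were called without untreated replicate 4 or Shh replicate 10 and 1 without untreated replicate 6. With the mean over probe sets Bsn (0.43), Rims1 (0.27) and Sv2b (0.28) were not called.

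Of 23 tested subunits of glutamate and GABA receptors 15 were called lower and 0 higher, with a median of -0.61, or -0.32 after median centring, where 9 were called lower and 1 higher. Grm5, a metabotropic receptor, had signals of 629.1, 576.8 and 568.8 untreated and 108.5 and 132.8 with Shh (-2.30, SE 0.17). Gria1, an AMPA receptor subunit carried by Bergmann glia and Purkinje cells, read 1449, 1139 and 1404 untreated and 344.1 and 243.0 with Shh (-2.19, SE 0.25). Grm3 fell by 1.98 and Grin3a by 1.87. The summed markers of astrocytes and Purkinje cells fell on the same arrays, and their part in these results was not tested. Without Shh replicate 8 the count was 7. Of 27 voltage-gated channels 8 were called lower and 2 higher (median -0.43), or 5 and 7 after median centring, and the lower count was 4 without Shh replicate 8 and 5 without untreated replicate 6. Cacna1g, a T-type calcium channel abundant in Purkinje cells, fell by 1.94 (SE 0.26), whereas Kcnj3, a G protein-gated potassium channel, read 373.1, 438.0 and 412.9 untreated and 906.9 and 956.3 with Shh. Kcnj3 rose by 1.19 (SE 0.16), with 0.74, 0.90 and -0.44 at its other probe sets, and Kcnd2, a potassium channel of granule neurons, by 0.50, a call that was lost without untreated replicate 6 or Shh replicate 10 and with the mean over probe sets.

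Of 34 axon guidance genes 10 were called lower and 2 higher, with a median of -0.18 that became 0.12 after median centring, where 8 were called in each direction. Efnb3, an ephrin, read 721.7, 630.7 and 735.8 untreated and 253.8 and 289.4 with Shh (-1.36, SE 0.13). Sema3a, a repellent that Purkinje cells also express, fell by 1.46, with -0.12 and -0.90 at its other probe sets. Unc5d, a netrin receptor, fell by 2.47. Robo3, a receptor that silences the Slit response, had signals of 421.5, 608.6 and 762.2 untreated and 219.9 and 221.9 with Shh (-1.39, SE 0.20), and its other probe set gave -0.41. The members called higher were Nrp2 (0.69) and Plxnb2, and the count on that side was 1 without untreated replicate 2, untreated replicate 4 or Shh replicate 8.

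Activity-induced genes moved in both directions. Of 24 tested, 8 were called lower and 5 higher (median -0.43), 6 and 3 of them past 2-fold, and after median centring 7 and 8 were. Egr1, an immediate early zinc finger factor, was among the brightest genes of the untreated cultures, at 17740, 12640 and 10090, and read 468.3 and 406.4 with Shh. Egr1 fell by 4.91 (SE 0.29, limma adjusted p = 1.16e-05), which is 30.1-fold. Junb, an AP-1 factor, read 740.1, 417.9 and 312.3 against 67.4 and 100.4 (-2.48, SE 0.40). Egr2 and Fosb, of the same early class, spread widely without Shh, from 306.1 to 1435 and from 150.1 to 648.0, and their calls were lost without untreated replicate 2 or 4 and without either Shh replicate, and that of Fosb also after quantile normalization. Dusp6, a phosphatase that ERK signalling induces, fell by 1.88. Nr4a3, an orphan nuclear receptor, went the other way, from 105.8, 57.5 and 56.4 untreated to 798.4 and 846.8 with Shh (3.55, SE 0.47), but its other probe sets gave 0.14 and 0.01. Fosl2, another AP-1 factor, read 84.9, 91.5 and 107.7 untreated and 828.5 and 936.0 with Shh (3.22, SE 0.18), with 1.03 at its other probe set. Per1, a clock gene that cyclic AMP induces, rose by 0.87, Nr4a2 by 1.01 and Crem by 0.51. These 3, and Junb, Egr2 and Fosb above, were chosen for mention after their values were seen. The call of Nr4a2 was lost without Shh replicate 10, and that of Crem without any 1 array but untreated replicate 2. The lower count was 5 without untreated replicate 2 or 4 or without either Shh replicate, and the higher count was 3 without Shh replicate 10.

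Components of other developmental pathways were called lower more often than higher with the scaling as deposited, as were all genes (17.0% lower, 11.0% higher). Of 22 BMP pathway genes 9 were called lower and 0 higher (median -0.38), or 7 and 2 after median centring (median -0.09), and 5 were called without Shh replicate 10. Gdf10, a BMP family ligand made by Bergmann glia, had signals of 6027, 5547 and 6209 untreated and 852.4 and 576.5 with Shh (-3.08, SE 0.17, limma adjusted p = 6.68e-06). Id3, a target of BMP signalling, read 1484, 1772 and 1615 untreated and 537.2 and 457.3 with Shh. The target Id4 fell by 1.30 and Bambi, a decoy receptor, fell by 1.89. Gdf10 and Id4 also stand on the astrocyte list, and the part of fewer glial transcripts in these results was not tested.

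Of 24 Notch pathway genes 9 were called lower and 0 higher (median -0.36), or 8 and 4 after median centring (median -0.06). Notch3, a receptor of pericytes, read 798.8, 765.6 and 760.8 untreated and 211.1 and 153.9 with Shh (-2.10, SE 0.18). Notch1, a receptor of glia and progenitors, had signals of 1352, 883.2 and 862.2 untreated and 488.9 and 344.8 with Shh (-1.30, SE 0.21). Hes6, a Hes family factor of differentiating neurons, and the ligand Dll3 fell by 0.82 and by 0.91, and the effector Hes1 by 0.92. Notch4, an endothelial receptor, fell by 2.05 at its brightest probe set, with 0.13 and 0.21 at the others, and the mean was not called (-0.57).

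Of 27 Wnt pathway genes 8 were called lower and 5 higher, with a median of -0.11 that became 0.18 after median centring, where 6 were called lower and 9 higher. Wnt4, a Wnt ligand, read 133.2, 148.9 and 96.6 untreated and 385.0 and 360.0 with Shh (1.58, SE 0.17), with 1.67 at its other probe set. Dkk3, a secreted protein of the Dickkopf family, went from 683.0, 729.5 and 490.2 to 147.4 and 122.3 (-2.22, SE 0.26). The inhibitor Wif1 fell by 2.61 and the target Nkd1 by 0.71. The higher count was 3 without either Shh replicate, 8 or 10.

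Of 15 genes of the IGF system 6 were called lower and 1 higher, with a median of -0.22 that became 0.08 after median centring. Igfbp4, a binding protein, had signals of 2574, 2875 and 2939 untreated and 342.4 and 391.4 with Shh (-2.93, SE 0.11, limma adjusted p = 6.84e-07). Igfbp7, a related protein of vessels, read 1314, 1314 and 1455 untreated and 196.7 and 198.8 with Shh (-2.78, SE 0.14). The other probe sets of Igfbp7 gave -0.91 and 0.00. Igfbp5, which granule precursors express, fell by 0.99 (SE 0.09), and Igfbp2 fell by 1.36. The 4 binding proteins were lower on both Shh arrays than on any untreated array, and the member called higher was Irs1, joined by a further one without untreated replicate 2.

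Of 29 tested Polycomb components 3 were called higher and 0 lower (median 0.07). The share called higher, 10.3%, lay near the 11.0% of all genes. After median centring 15 were called higher (median 0.36), where 38.1% of all genes were (median 0.29). Mtf2, a cofactor of PRC2, had signals of 2148, 1732 and 1710 untreated and 3478 and 3870 with Shh (0.99, SE 0.14), and its other probe sets gave 0.66, 0.75, 0.33, 0.79 and 0.00. Pcgf3, a paralog of Bmi1 in variant PRC1, read 1147, 793.4 and 840.3 untreated and 1917 and 1837 with Shh (1.04, SE 0.18). The 2 other probe sets of Pcgf3 disagreed, at -0.05 and -0.52, and the mean was not called (0.16). Eed, a core subunit of PRC2, rose by 0.58, with 0.05 at its other probe set, and the mean was not called either (0.32). The histone list had only 7 tested members, of which 2 were called higher and 3 lower, and H2ax, the variant phosphorylated at DNA breaks, rose by 0.43, a call that was lost without either Shh replicate. The higher count of this list was 1 or 0 without any 1 array.

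Genes of cholesterol synthesis and uptake rose together. Of 23 tested, 17 were called higher and 1 lower, with a median of 0.66, and in the fits without 1 array the higher count was 13 to 17. Msmo1, the sterol C4 methyl oxidase, had signals of 1760, 1823 and 1576 untreated and 5233 and 5244 with Shh (1.61, SE 0.11, limma adjusted p = 2.58e-05). A second probe set of Msmo1 gave -0.70, and the mean of both was not called (0.45). Nsdhl, which acts in the same demethylation step, read 1746, 1938 and 1890 untreated and 3936 and 3781 with Shh (1.06, SE 0.09). Stard4, a cholesterol carrier, read 1428, 1604 and 1472 untreated and 3421 and 3236 with Shh (1.15, SE 0.09), with 0.87 and 1.18 at its other probe sets. Lss, lanosterol synthase, rose by 0.93, with 0.00 and 0.30 at its other probe sets, and the mean was not called (0.41). At the probe sets used, the Shh arrays of all 4 stood above the untreated ones. The member that fell was Abca1, which exports cholesterol, from 2194, 2465 and 2269 to 981.0 and 1045 (-1.19, SE 0.14), with -1.02 and -0.48 at its other probe sets, and the mean was not called (-0.90).

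Among 20 promoters of cholesterol genes in the RefSeq collection, 80.0% held CCAAT on either strand, against 37.6% of all promoters. The share was 89.5% of 19 promoters of the unfolded protein response and 80.0% of 10 of MHC class I, lists with fewer calls. The sterol element TCACNCCAC, added after the data were seen, stood in 5.00% of the cholesterol promoters and in 1.12% of all. The promoters of Msmo1 (chr8:64733529-64733828, minus strand) and Nsdhl (chrX:72918271-72918570, plus strand) are shown 5′ to 3′ on GRCm38.p6 because each holds several CCAAT boxes, which are in capitals together with the reverse form ATTGG.
Msmo1: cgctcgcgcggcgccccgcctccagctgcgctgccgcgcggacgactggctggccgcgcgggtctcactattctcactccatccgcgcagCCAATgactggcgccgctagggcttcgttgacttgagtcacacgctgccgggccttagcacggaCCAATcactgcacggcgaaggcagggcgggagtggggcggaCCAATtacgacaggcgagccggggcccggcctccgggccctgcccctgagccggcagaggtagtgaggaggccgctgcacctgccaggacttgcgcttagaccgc
Nsdhl: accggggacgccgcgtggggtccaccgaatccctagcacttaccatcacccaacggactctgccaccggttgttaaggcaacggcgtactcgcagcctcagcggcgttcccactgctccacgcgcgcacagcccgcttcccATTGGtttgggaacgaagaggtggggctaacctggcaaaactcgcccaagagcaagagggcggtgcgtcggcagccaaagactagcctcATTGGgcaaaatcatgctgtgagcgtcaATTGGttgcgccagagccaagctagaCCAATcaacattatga

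Other metabolic lists held smaller shares of called members. Of 18 genes of fatty acid synthesis 4 were called higher and 1 lower (median 0.11), or 11 and 0 after median centring, and 2 were higher without Shh replicate 10. Scd1, the stearoyl-CoA desaturase, read 618.5, 628.5 and 585.0 untreated and 1169 and 1159 with Shh (0.93, SE 0.12), and Elovl6, an elongase, rose by 0.77. Of 18 glycolysis genes 7 were called lower and 1 higher, with a median of -0.16 that became 0.13 after median centring, where 5 were called lower and 6 higher. Slc16a1, a lactate transporter of endothelium and glia, had signals of 2704, 3776 and 3149 untreated and 971.7 and 846.0 with Shh (-1.81, SE 0.15). Slc2a1, the glucose transporter of the blood-brain barrier, fell by 0.98 and Aldoc, the glial aldolase, by 0.93, while Hk2, hexokinase 2, rose from 2086, 2041 and 2126 to 3147 and 3374 (0.64, SE 0.08). Without untreated replicate 6, 3 glycolysis genes were called higher. Of 19 hypoxia genes 6 were called lower and 1 higher (median -0.30), or 2 and 5 after median centring, but the lower count was 2 without untreated replicate 4 or 6 or either Shh replicate. Epas1, the endothelial HIF2 subunit, read 1222, 1498 and 1553 untreated and 69.2 and 76.6 with Shh (-4.28, SE 0.13). The other probe set of Epas1 gave -1.42. Endothelial markers fell on the same arrays, and their part in the falls of Slc2a1 and Epas1 was not tested. Of 61 subunits of oxidative phosphorylation 0 were called in limma's fit in either direction, with a median of 0.06, whereas 37 were called higher and 0 lower after median centring (median 0.36). After quantile normalization 0 were called.

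Among stress programmes, the share called higher was 45.5% in the Atf4 and amino acid list and 18.2% in the unfolded protein response list. Over all genes it was 11.0%, or 38.1% after median centring. Of 33 genes of the Atf4 and amino acid response 15 were called higher and 3 lower (median 0.31), or 22 and 2 after median centring, with 8 higher without Shh replicate 8 and 1 lower without Shh replicate 10. Atf5, a factor of this response, read 582.8, 450.5 and 477.9 untreated and 1348 and 1112 with Shh (1.29, SE 0.16). Asns, asparagine synthetase, had signals of 2323, 2011 and 2213 untreated and 4443 and 3980 with Shh (0.95, SE 0.11). Slc7a3, a transporter of cationic amino acids, rose by 1.56, and Cebpg, a partner of Atf4, by 1.28, although other probe sets of Cebpg gave 0.06 and 0.79. Those called lower were Vldlr (-0.79), Slc6a9 (-0.77) and Phgdh (-0.38), and the calls of Slc6a9 and Phgdh were lost without Shh replicate 10, that of Phgdh also after median centring. With the mean over probe sets Vldlr (-0.46) and Phgdh (-0.25) were not called. Of 22 genes of the unfolded protein response 4 were called higher and 0 lower, with 12 higher after median centring and 1 without either Shh replicate. Xbp1, a factor of that response, rose by 0.44, a call that was lost without either Shh replicate.

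The share called higher was 24.0% of antioxidant, 26.7% of heat shock and 8.0% of ribosome biogenesis genes. Over all genes it was 11.0%, or 38.1% after median centring. Of 25 antioxidant genes 6 were called higher and 1 lower (median 0.08), or 14 and 0 after median centring, with 3 higher without Shh replicate 10. Hmox1, heme oxygenase 1, rose by 1.53 from 95.9, 155.3 and 107.6 to 249.7 and 460.6, a call lost without Shh replicate 10. Gclm, an enzyme of glutathione synthesis, rose by 0.60, with 0.01 at its other probe set, and the mean was not called (0.31). Nfe2l2, the factor Nrf2, had signals of 648.6, 507.4 and 609.1 untreated and 1439 and 1137 with Shh (1.13, SE 0.19), but its other probe set gave -2.51, so that the mean over its probe sets gave -0.69. Of 15 heat shock genes 4 were called higher and 2 lower, or 8 and 2 after median centring, and the higher count was 0 without Shh replicate 8 and 2 without untreated replicate 4 or Shh replicate 10. The lower count was 1 or 0 without untreated replicate 2 or 6 or either Shh replicate. Of 50 genes of ribosome biogenesis 4 were called higher and 0 lower, or 29 higher after median centring, led by Nop2, a methyltransferase of ribosomal RNA (0.77, SE 0.13), and without untreated replicate 4 or 6 or Shh replicate 10 only 1 was called, and 2 without untreated replicate 2 or Shh replicate 8. Of 38 ribosomal proteins 1 was called lower, Rpl12 (-0.90), and 6 were called higher after median centring. Of 26 lysosome genes 1 was called higher and 2 lower, or 9 and 0 after median centring (0 or 1 lower without any 1 array). With the scaling as deposited these shares (3.85% higher, 7.69% lower) lay under the 11.0% and 17.0% of all genes.

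Interferon-stimulated genes showed the largest rise of all lists. Of 23 tested, 18 were called higher and 3 lower, 17 of them higher by 2-fold or more, with a median of 2.08. In the fits without 1 array 16 to 18 were called higher. Usp18, which dampens interferon signalling, lay under the floor on all untreated arrays and read 1509 and 1554 with Shh, at least 73.3-fold higher (limma adjusted p = 2.11e-07). Ifitm3, a membrane protein that blocks viral entry, had signals of 594.2, 672.0 and 649.7 untreated and 2816 and 2587 with Shh (2.08, SE 0.12). Irf9, the DNA-binding part of the interferon complex ISGF3, read 199.3, 155.3 and 121.8 untreated and 984.4 and 959.1 with Shh (2.64, SE 0.19). Irgm1, an interferon-inducible GTPase, went from 159.2, 175.4 and 198.8 to 730.2 and 770.6 (2.08, SE 0.15), and Irf7, which amplifies the response, from 89.4, 23.7 and 75.3 to 241.8 and 426.3 (2.56, SE 0.49). In all 5 the groups lay apart. The members called lower were Ifitm1 (-1.30), Ifitm2 (-1.16) and Ifit2 (-0.80), neighbours or relatives of induced genes, and the call of Ifit2 was lost without any 1 array but untreated replicate 2. Irf7 and the 3 members that fell were chosen for mention after their values were seen. Of 23 microglia and macrophage markers, 11 were called lower and 6 higher on the same arrays (median -0.97). Their part in the interferon result was not tested.

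The core of the interferon-stimulated response element (ISRE), TTTC, 2 bases of any kind and TTTC again, was added to the search after the data were seen. It stood on either strand in 45.8% of 24 promoters of interferon genes in the RefSeq table, and in 2.67% of all promoters. The promoters of Ifitm3 (chr7:141010695-141010994, minus strand) and Irgm1 (chr11:48871371-48871670, minus strand) are shown 5′ to 3′ on GRCm38.p6 because both hold the reverse form of this core near the start, in capitals, and the 2 matches in Irgm1 overlap.
Ifitm3: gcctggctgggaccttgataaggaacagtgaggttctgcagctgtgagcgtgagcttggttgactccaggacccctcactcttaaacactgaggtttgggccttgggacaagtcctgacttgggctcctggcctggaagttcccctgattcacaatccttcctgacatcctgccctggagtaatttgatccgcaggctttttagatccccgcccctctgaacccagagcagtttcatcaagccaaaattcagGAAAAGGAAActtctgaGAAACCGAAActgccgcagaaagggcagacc
Irgm1: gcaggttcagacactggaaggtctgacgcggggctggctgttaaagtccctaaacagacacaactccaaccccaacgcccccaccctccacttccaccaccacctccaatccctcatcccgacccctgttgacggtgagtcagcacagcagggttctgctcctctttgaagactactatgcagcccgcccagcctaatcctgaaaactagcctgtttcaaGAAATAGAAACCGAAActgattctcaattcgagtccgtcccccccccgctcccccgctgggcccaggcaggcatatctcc

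Of 10 genes of MHC class I and antigen processing 2 were called higher and 1 lower (median 0.30), or 8 and 0 after median centring. B2m, the light chain of class I molecules, had signals of 2184, 2847 and 2922 untreated and 5206 and 5428 with Shh (1.02, SE 0.13), and Tapbp, which loads peptides, rose by 0.64, with 0.29 at its other probe set, and the mean was not called (0.46). The lower call of this list was lost without any 1 array but Shh replicate 10. Of 22 genes of NF-kappaB signalling, cytokines and the acute phase 2 were called higher and 2 lower (median 0.12). Ccl5, a chemokine, lay under the floor on the untreated arrays and read 813.3 and 1432 with Shh, at least 51.6-fold higher. Saa3, an acute phase protein of macrophages and stromal cells, read 18.5, 58.7 and 64.6 untreated and 234.8 and 430.8 with Shh (2.89, SE 0.44). Vcam1, an adhesion molecule of endothelium, fell by 1.57 (SE 0.24), although the mean over its probe sets was not called (-1.12), and without Shh replicate 8 the lower count of this list was 1.

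Most extracellular matrix genes fell. Of 38 tested 24 were called lower and 2 higher, 18 of them lower by 2-fold or more, with a median of -1.004, and 24 or 25 were called lower in every fit without 1 knockout array. Col4a1, a collagen of basement membranes, had signals of 3264, 3154 and 3008 untreated and 561.7 and 591.9 with Shh (-2.45, SE 0.12). Lama4, a laminin of vessels, read 376.2, 383.5 and 359.6 untreated and lay under the floor on both Shh arrays, at least 17.9-fold lower, although its other probe set gave -0.47. Col1a2, a fibrillar collagen, read 640.7, 623.0 and 549.0 untreated and 69.7 and 82.3 with Shh (-2.99, SE 0.17). The other probe sets of Col1a2 gave -3.13 and 0.00. Tnc, tenascin C, which also stands on the astrocyte list, fell by 2.80. The members that rose were Lama5 (1.00, SE 0.15) and Timp3 (0.59, SE 0.14), a laminin chain and a protease inhibitor, and the call of Timp3 was lost without either Shh replicate. Of 10 integrins 4 were called lower and 0 higher (median -0.41), or 1 and 1 after median centring, but 1 without untreated replicate 4 or Shh replicate 10 and 2 without Shh replicate 8. Of 26 genes of the cytoskeleton and serum response 5 were called lower and 2 higher, or 3 and 11 after median centring, and Myl9, a myosin light chain of smooth muscle, fell by 2.21. Without untreated replicate 2 or 4 or either Shh replicate the lower count was 2 or 3, and without either Shh replicate the higher count was 0. Vascular and fibroblast markers fell on the same arrays, and their part in the matrix result was not tested.

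**Figure D3:**
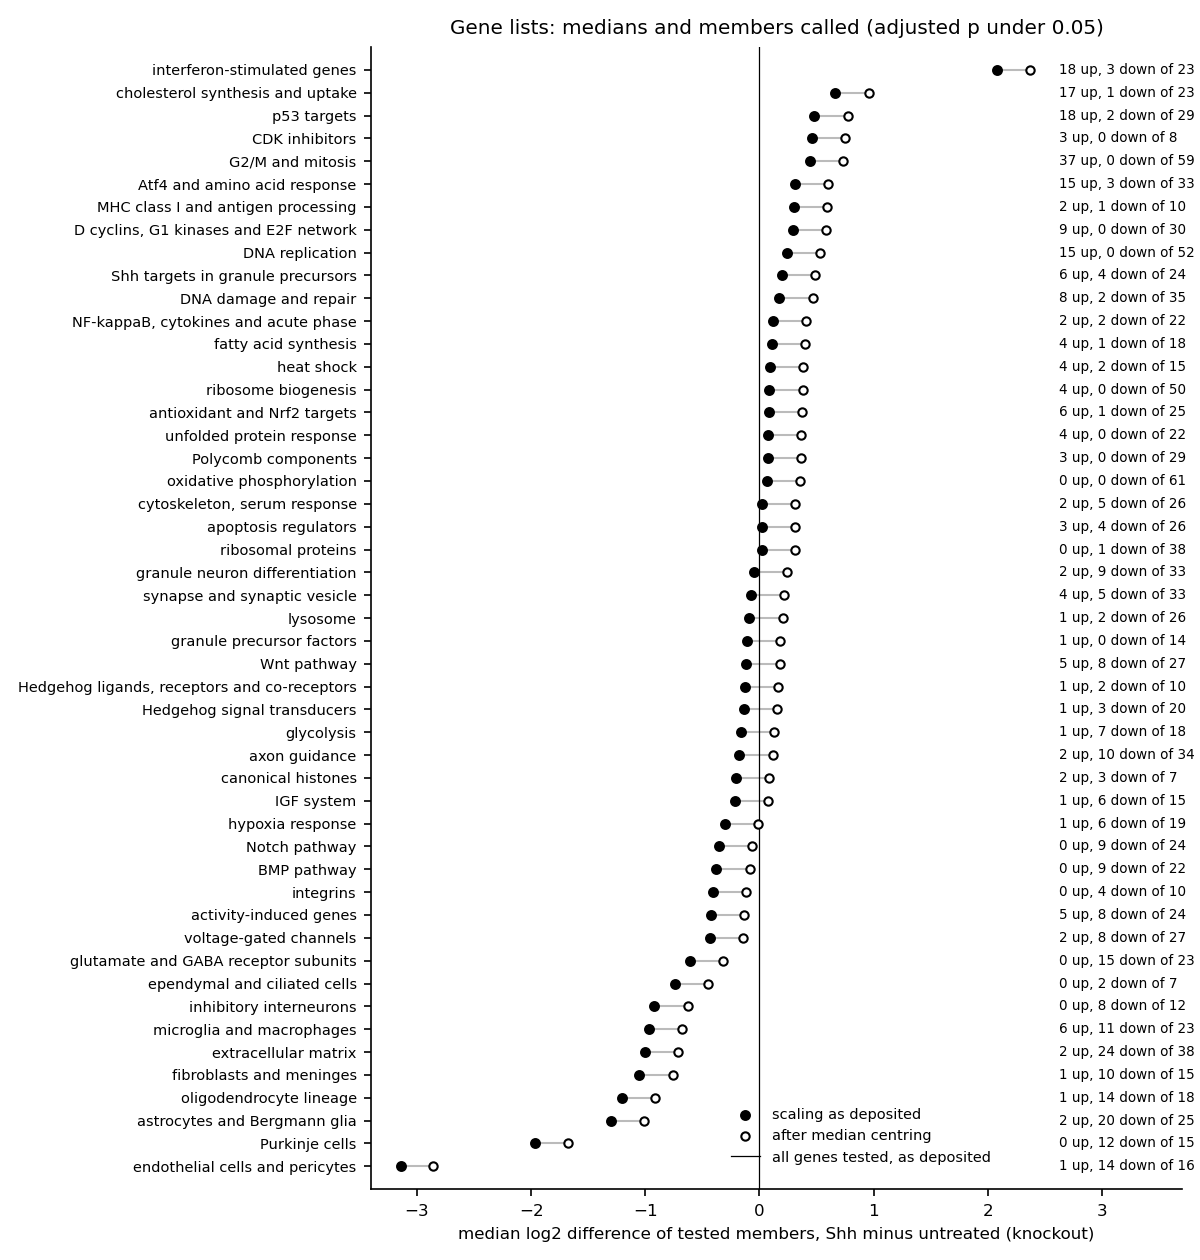
Median log2 difference of the tested members of each gene list in knockout cultures (horizontal axis), with the scaling as deposited (filled circles) and after median centring (open circles), and the members called as text at the right. The short lists of unipolar brush cells and of erythroid cells are not shown. Interferon-stimulated genes lie highest (median 2.08) and markers of endothelial cells and pericytes lowest (median -3.14); lists with a deposited median between about -0.29 and 0 cross 0 after median centring.

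Genes with the largest changes belonged to the groups above or to none of the lists. The 12 largest rises among genes called under all 3 scalings were Usp18, Ccl5, Acod1, Mir670hg, Nr4a3, Cybb, Lgals3, Fosl2, Rtp4, Cd52, Ifi27 and Saa3. Acod1, which makes itaconate in activated macrophages, lay under the floor on the untreated arrays and read 626.5 and 541.1 with Shh, at least 27.9-fold higher. Mir670hg, a host transcript of a microRNA, had signals of 96.9, 64.9 and 109.6 untreated and 1054 and 1180 with Shh (3.66, SE 0.21), with 3.46 at its other probe set. Cybb, the catalytic subunit of the phagocyte NADPH oxidase, read 41.5, 38.2 and 37.8 untreated and 356.2 and 571.8 with Shh (3.53, SE 0.27). Cd52, a surface peptide of leukocytes, read 52.4, 74.8 and 51.0 untreated and 368.2 and 546.8 with Shh (2.94, SE 0.34). Rtp4 and Ifi27, both induced by interferon, rose by 3.10 and by 2.89, but the other probe set of Rtp4 gave 0.00.

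The 12 largest falls were those of Aplnr, Slco1c1, Rgs5, Cldn5, Mfap4, Cd93, Egr1, Slc38a5, Ctla2a, Slc39a8, Vtn and Slc1a6. Aplnr, the apelin receptor of endothelium and progenitors, had signals of 4221, 5035 and 5447 untreated and 28.5 and 83.1 with Shh, and fell 100.2-fold (-6.65, SE 0.36, limma adjusted p = 6.68e-06). The other probe set of Aplnr gave -2.12. Slco1c1, a thyroid hormone transporter of brain vessels and astrocytes, read 1510, 1450 and 1433 untreated and lay under the floor with Shh, at least 70.1-fold lower. Mfap4, a microfibril protein, read 4752, 6109 and 7040 untreated and 197.7 and 190.9 with Shh (-4.92, SE 0.20). Cd93, an endothelial lectin, read 968.5, 1065 and 1047 untreated and 27.9 and 41.7 with Shh (-4.91, SE 0.16), but its other probe sets ranged from -5.16 to 0.00. Slc39a8, a metal ion transporter, lay under the floor on both Shh arrays and was at least 22.2-fold lower, and Slc38a5, an amino acid transporter, and Ctla2a, a protease inhibitor, each lay under it on 1 Shh array. Vtn, vitronectin, fell by 4.46. Of the genes called under all scalings, 1872 stood on none of the lists, among them 130 of the 194 that rose and 613 of the 753 that fell by 2-fold or more.

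**Figure D4:**
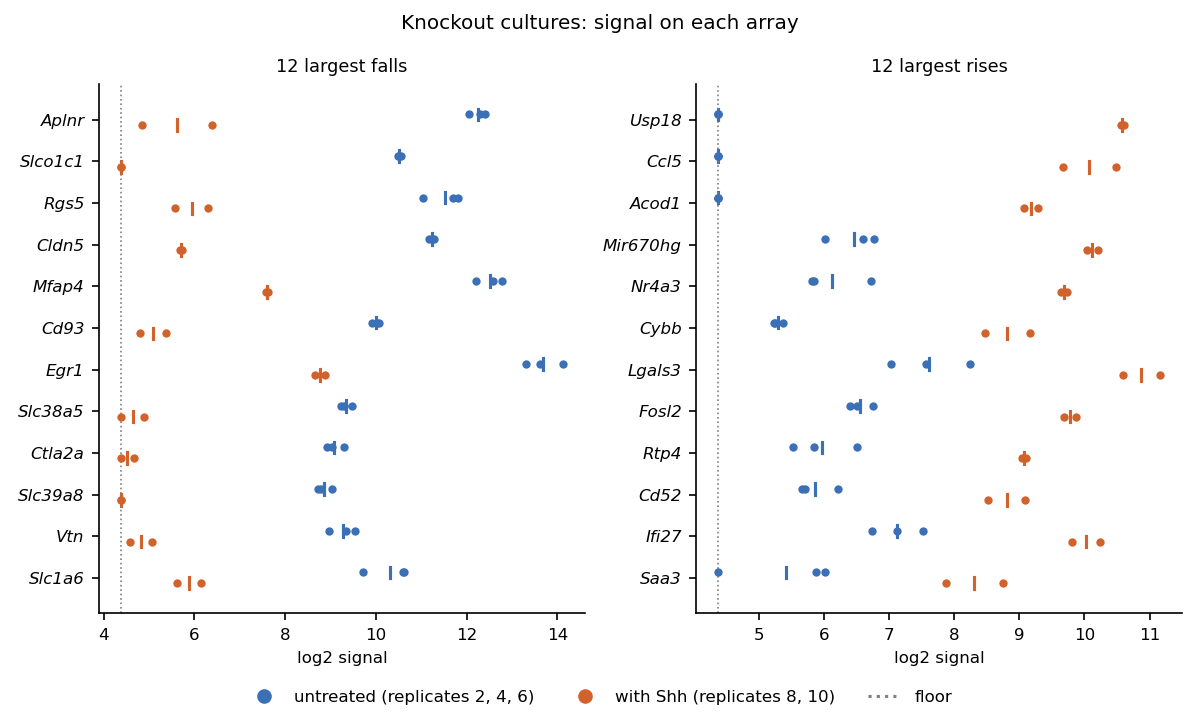
Log2 signal on each knockout array (horizontal axis) for the 12 genes with the largest falls and the 12 with the largest rises called under all 3 scalings, with untreated replicates in blue, Shh replicates in orange, vertical bars at the group means and the floor as a dotted line. Untreated and Shh arrays lie apart in all 24 genes, and Usp18, Ccl5 and Acod1 lie on the floor on all untreated arrays.

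The knockout response was then set beside that of wild type cultures, which shared no arrays with it. In the wild type 3855 genes (33.8%) were called. Across the 11405 genes the 2 responses correlated (Pearson r 0.914, Spearman rho 0.863), a description over genes, which are not independent replicates, of arrays that share their platform and scaling. The sign was the same for 84.6% of all genes and for 98.6% of the genes called in the knockout. Of the 3199 genes called in the knockout, 2595 were also called in the same direction in the wild type, 2 in the opposite direction and 602 in neither direction, and 1258 genes were called in the wild type alone, which is no test of a difference.

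The test of the difference itself, the interaction of genotype and Shh, called 1 gene of 11405 (0.00877%), whereas 561 genes had an unadjusted p under 0.05. That gene was Igf2, a growth factor of fetal tissues and a Shh target that granule precursors use as a mitogen. In the knockout Igf2 had signals of 646.9, 750.6 and 680.3 untreated and 426.4 and 403.8 with Shh, a fall by 0.74 (SE 0.10, limma adjusted p = 0.00103). In the wild type it fell by 2.20, so that the knockout response was higher by 1.46 (interaction adjusted p from limma = 0.0383). The other probe set of Igf2 gave -0.12 in the knockout, and fibroblast and meningeal markers, a list that holds Igf2, fell on the same arrays, whose part in the result was not tested. The call was lost after median centring, after quantile normalization, and without any 1 of the 10 arrays, where adjusted p-values ran from 0.0648 to 0.297.

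The list medians of the 2 genotypes were set side by side. The median of the G2 and mitosis list was 0.44 in the knockout and 0.67 in the wild type, that of the replication list 0.24 and 0.48, and that of the interferon list 2.08 and 2.50. For the p53 targets the medians were 0.48 and 0.26, for cholesterol genes 0.66 and 0.80, and for endothelial and pericyte markers -3.14 and -2.89. No member of these 6 lists was called for a difference between genotypes by limma, while 11 of 59, 7 of 52, 9 of 23, 5 of 29, 2 of 23 and 3 of 16 had an unadjusted p under 0.05, beside 561 of 11405 genes (4.92%). Outside these 6 lists, the oligodendrocyte lineage had 11 of 18 such members, or 61.1% (medians -1.21 and -1.95). Astrocytes and Bergmann glia had 9 of 25, or 36% (medians -1.30 and -1.71), beside 39.1% of the interferon list. None of these glial members was called either. The fibroblast and meningeal list, which holds Igf2, had 5 of 15. Phlda3 rose by 1.03 in the knockout and stood at 0.07 in the wild type, a difference of 0.95 (SE 0.18) with an unadjusted p of 0.000473 and an adjusted p of 0.444 from limma. Ptch1 differed by -0.06 (SE 0.13) between genotypes and Gli1 by -0.48 (SE 0.17), neither of them called. Cdkn2a stood at 0.45 in the knockout and at -0.38 in the wild type, and this difference of 0.83 (SE 0.26) had an adjusted p of 0.805 from limma. Other genes with small interaction p-values were Adgra1, Plaat1, Adgrb2, Fndc1, Sgsm1, Resp18 and Sall1, all with an adjusted p of 0.444. Adgra1, for example, fell by 1.00 in the knockout and fell by 2.59 in the wild type. Resp18 stood at -1.56 and -3.45.

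**Figure D5:**
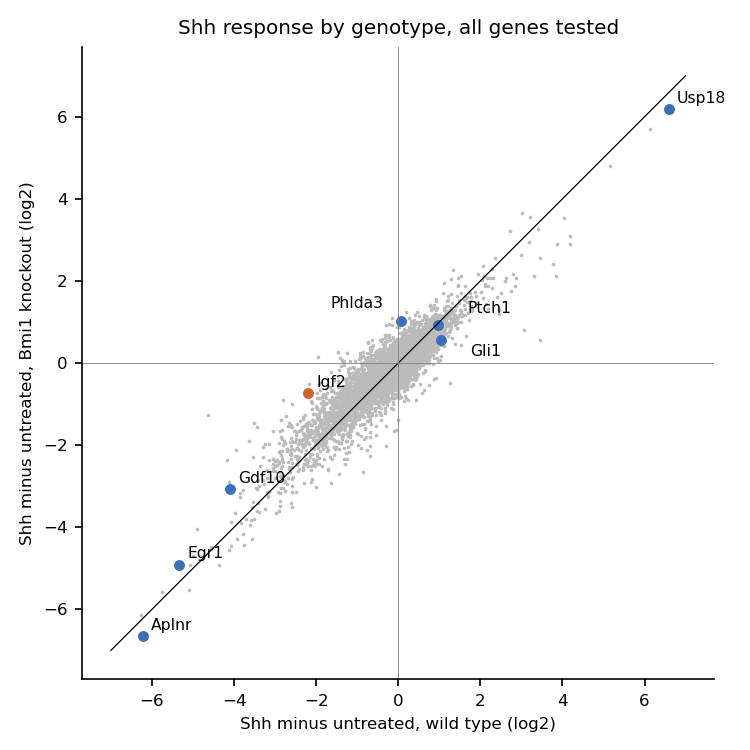
Log2 difference between cultures with and without Shh in Bmi1 knockout cells (vertical axis) against the same in wild type cells (horizontal axis), 1 point per gene tested, with the line of equal response. Points follow the line (Pearson r 0.914); Igf2, in orange, is the gene called for a difference between genotypes (-0.74 in the knockout, -2.20 in the wild type).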

How the data were processed

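Cultures were hybridised to Affymetrix mouse genome arrays, 1 each. The deposited values are signal intensity on a linear scale, made by the authors with MAS5 (GCOS 1.2, per the submitters' processing notes); every array had a 2% trimmed mean of 500. Of 45101 probe sets 64 controls, 932 with several genes and 9160 with none were left out. The other 34945 named 18193 genes, 34741 of them matched by Entrez identifier to RefSeq (GRCm38.p6). Signals under the 25th percentile (20.9) were raised to this floor and log2 was taken. A gene was read at its probe set with the highest mean, and tested if that mean reached the median of all probe sets (signal 76.1).

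The 10 arrays were fitted with limma 3.58.1 in R 4.3.3, with 1 mean per group, 6 residual and 3.11 prior degrees of freedom. Errors are standard errors of the model (SE). A fold against a group at the floor is a lower bound. On simulated data with 200 changed genes among 11405, 81% of 2-fold and 96% of 4-fold changes were recovered, with 9 false calls. The simulation had independent noise, no shift in scaling and far fewer changed genes than were called here. Its rates therefore check the fitting code and do not carry over to the real counts. The number of arrays limits precision.

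Members and gene lists were chosen with earlier results of these data known, and lists were given counts and medians with no set test. Genes named are the 12 highest and 12 lowest called under 3 scalings, up to 4 per list by p, 22 fixed genes and the 8 smallest interaction p-values (197 tested genes in all). Other names were chosen after their values were seen, also where the text does not repeat this beside the gene.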

Additional observations from a re-analysis of the deposited data

Results flagged for a closer look

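Igf2 was the gene whose Shh response differed between genotypes by the test of the difference: the knockout response was higher by 1.46 on the log2 scale (limma adjusted p = 0.0383), with a fall by 0.74 in knockout and by 2.20 in wild type cultures. Its second probe set gave -0.12 in the knockout. Adjusted p-values over the alternatives ranged from 0.0160 to 0.426.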

How the results depend on the processing

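The knockout count of 3199 genes became 5477 after median centring and 1935 of 7021 genes with a filter at the 75th percentile (signal 508.9), where fewer genes were tested. It was 3056 to 3297 with quantile normalization, no floor or no filter, 2637 with the mean over probe sets, 2725 with only the 5 knockout arrays and 3460 with a trended prior, and 1893 to 2685 when 1 knockout array was left out. The 2-fold count of 1005 was 229 with that stricter filter and 943 to 983 without 1 array. The genotype difference called 1 gene, and 0 after median centring, quantile normalization, without the floor, without the filter, with the stricter filter or with the mean over probe sets, and 0 to 2 genes without 1 array; unadjusted p-values under 0.05 numbered 286 to 1007 there. No paired analysis was possible because the untreated and Shh cultures share no replicate number. With consecutive numbers as a random replicate block (correlation 0.289) 3183 genes were called. Of 183 named genes called, 152 kept the call without each of the 5 knockout arrays and 31 lost it at least once. Directions reversed after median centring for Smo (0.24), Gas1 (0.087), Bmi1 (0.218), Zic1 (0.20) and Pax6 (0.083), and with the mean over probe sets for Gas1 (0.234), Bmi1 (0.041), Zic1 (0.02) and Nfe2l2 (-0.69). Without 1 array, differences that missed the threshold crossed 0 for Smo (-0.154 to 0.025), Gas1 (-0.561 to 0.15), Sufu (-0.024 to 0.12), Gli2 (-0.071 to 0.159), Cdkn2c (-0.036 to 0.084) and Sall1 (-0.09 to 0.579). The causes of these differences between settings, including the smaller number of genes or arrays, were not tested.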
